A study of Mus musculus with 3 samples.

Results

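Mpo-low haematopoietic progenitors, a name that other genes bore out only in part, are cells that a marker rule picked from dendritic cell cultures. Here they are described across 3 glutamine conditions. A cell was counted as one when at least 2 of Cd34, Kit, Ctsg, Adgrg3 and Prtn3 had at least 1 UMI (a unique molecular identifier, which marks 1 captured mRNA molecule) and Mpo had at most 1. In addition Ngp, Camp and Ltf of neutrophils, Mcpt8 and Prss34 of basophils, and Ccr9 of plasmacytoid dendritic cells (pDC) had to be at 0. This gave 2261 of 28903 cells. These 12 genes chose the cells, so their levels are a description and support nothing.

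The cells came from wild-type C57BL/6 mice and were differentiated in vitro with FLT3L, the ligand of the receptor FLT3 that drives dendritic cell development, before droplet single-cell RNA sequencing with 10x Genomics 3' v3 chemistry. There were 3 libraries, 1 per group: 50 µM glutamine, 2 mM glutamine with 1 µM DON, and 2 mM glutamine alone, which is the control. DON, short for 6-diazo-5-oxo-L-norleucine, resembles glutamine and inhibits the enzymes that bind it. The study's title concerns type 1 conventional dendritic cells (cDC1); the labels do not say how many mice a culture was made from or how long it ran. No group had a replicate, so no difference below could be tested, and all intervals are 95% intervals that cover counting error only.

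Haematopoietic progenitors divide while they pass from multipotent states to committed lineages, and they are usually recognised by the surface proteins CD34 and KIT. Those that head for neutrophils and monocytes make granule enzymes such as myeloperoxidase (Mpo), proteinase 3 (Prtn3), cathepsin G (Ctsg) and neutrophil elastase (Elane), whereas dendritic cell precursors depend on FLT3 and the transcription factor IRF8. When amino acids run short, the kinase GCN2 raises translation of the transcription factor ATF4, which drives genes for amino acid synthesis and uptake.

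A pair of short DNA elements is shown in promoters of genes whose mRNA differed between libraries. They are the ATF4 composite element, searched as TGATGNAA, and the core hypoxia response element, searched as ACGTG, both on either strand. Capitals mark the TGATGNAA matches in Asns, Pycr1 and Slc1a4 and the ACGTG matches in Ankrd37, Pgk1 and Slc16a3, in the letters of the gene's own strand. The sequences are RefSeq windows of GRCm38.p6 that run from 250 bases before to 50 bases after a transcription start, shown whole for Asns (chr6:7693160-7693459, minus strand) and Ankrd37 (chr8:45999801-46000100, minus strand). The other stretches, of 60 bases around the first match, are Pycr1 (chr11:120643818-120643877, minus strand), Slc1a4 (chr11:20332684-20332743, minus strand), Pgk1 (chrX:106186922-106186981, plus strand) and Slc16a3 (chr11:120949012-120949071, plus strand).
Asns: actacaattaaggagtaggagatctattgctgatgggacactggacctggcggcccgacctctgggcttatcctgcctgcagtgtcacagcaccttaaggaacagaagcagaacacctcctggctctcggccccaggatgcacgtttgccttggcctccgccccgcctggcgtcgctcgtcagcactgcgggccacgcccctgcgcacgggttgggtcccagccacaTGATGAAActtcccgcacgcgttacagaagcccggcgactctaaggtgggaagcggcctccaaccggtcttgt
Pycr1: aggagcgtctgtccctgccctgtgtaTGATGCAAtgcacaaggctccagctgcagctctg
Slc1a4: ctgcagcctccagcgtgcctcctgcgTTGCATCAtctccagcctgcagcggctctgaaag
Ankrd37: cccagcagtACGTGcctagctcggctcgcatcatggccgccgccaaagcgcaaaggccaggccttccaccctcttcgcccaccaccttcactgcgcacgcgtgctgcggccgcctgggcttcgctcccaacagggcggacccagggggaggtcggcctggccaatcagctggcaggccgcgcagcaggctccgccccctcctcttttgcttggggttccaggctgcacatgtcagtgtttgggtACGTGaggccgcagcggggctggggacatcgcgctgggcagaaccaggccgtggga
Pgk1: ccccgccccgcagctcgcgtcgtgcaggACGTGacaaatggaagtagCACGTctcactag
Slc16a3: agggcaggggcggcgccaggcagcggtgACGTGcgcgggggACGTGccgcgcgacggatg

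The TGATGNAA element was in the window of 8 of the 27 measured ATF4 targets with a promoter entry (29.6%). It was in 2.61% of the genes compared between 50 µM glutamine and control and in 4.51% of all genes with a promoter entry. A gene was counted when any of its windows held a match. Counted by window, the element was in 3.97% of all 32851 promoter windows. The ACGTG element was in the windows of 15 of 21 glycolytic genes (71.4%) and 12 of 13 hypoxia targets (92.3%). It was in 31.1% of the compared genes, 21.8% of all genes with a promoter entry and 19.6% of all windows. A CACGTG holds overlapping matches of ACGTG on both strands, and the ends of the elements can overlap. A match describes the letters and is not evidence of binding.

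The Mpo-low progenitors were a larger share of the cells at 50 µM glutamine than in the other libraries. They were 1311 of 9649 cells (13.6%, exact Clopper-Pearson interval 12.9 to 14.3%) at 50 µM, 498 of 8887 (5.60%, 5.14 to 6.10%) with DON and 452 of 10367 (4.36%, 3.98 to 4.77%) in control. No interval overlapped another. The cells had a median of 14132 UMIs at 50 µM, 15304 with DON and 13722 in control, against 7144, 7898 and 6755 in the other cells of those libraries, so a low marker had more chances to appear in them. With every cell thinned to 2000 UMIs before the rule was applied, and with shallower cells left out, 9287, 8690 and 10061 cells remained and the shares were 5.27% (4.82 to 5.74%), 1.52% (1.27 to 1.80%) and 1.29% (1.08 to 1.53%). At this depth the DON and control intervals overlapped, while the 50 µM share was above both. Progenitors with 2 or more Mpo UMIs that otherwise met the rule, called Mpo-positive below, were 3.32% of cells at 50 µM (2.97 to 3.69%), 0.619% with DON (0.467 to 0.805%) and 0.617% in control (0.476 to 0.788%). Levels, ratios and UMI shares given below for other cells leave out these Mpo-positive cells as well as the members.

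**Figure D1:**
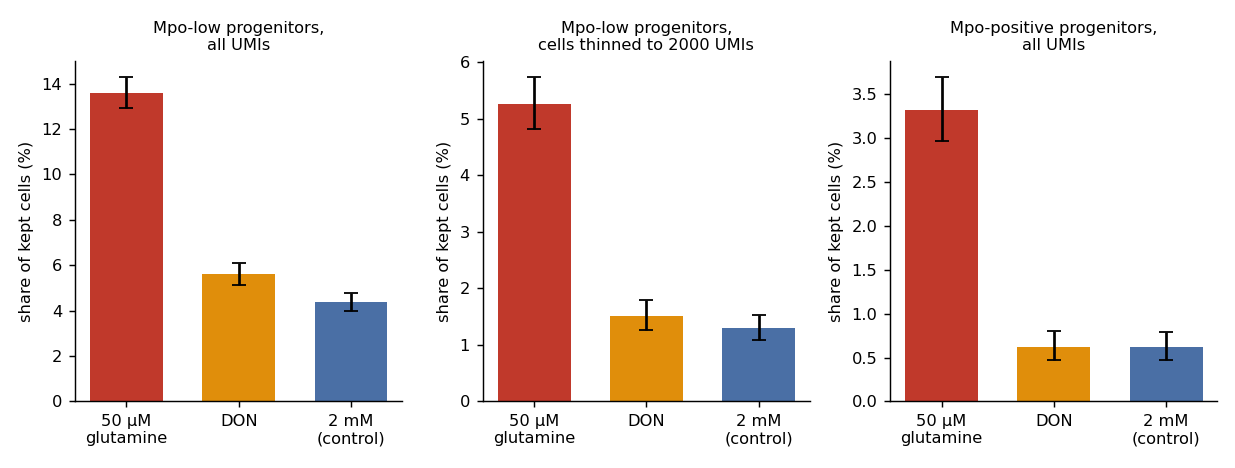
Share of kept cells (%, bars, axes from 0) that were Mpo-low progenitors with all UMIs, Mpo-low progenitors after thinning each cell to 2000 UMIs, and Mpo-positive progenitors, in the 50 µM glutamine, DON and control libraries; error bars are exact 95% binomial intervals. The 50 µM bar is the highest in each panel, at 13.6%, 5.27% and 3.32%.

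Which markers admitted the cells differed between libraries. Prtn3 was present in 82.7% of the progenitors at 50 µM, 86.1% with DON and 87.2% in control, and Adgrg3, an adhesion receptor of granulocytes and their precursors, in 73.2%, 61.0% and 58.2% in the same order. Ctsg was in 53.2%, 32.5% and 35.2%, Cd34 in 40.7%, 35.5% and 41.2%, and Kit in 18.2%, 24.7% and 27.7%. Neither Cd34 nor Kit was present in 48.9% of the progenitors at 50 µM, 47.0% with DON and 39.4% in control. The commonest combination was Adgrg3 with Prtn3 alone, in 20.1%, 28.9% and 21.7%. Exactly 2 markers were present in 49.8% of the progenitors at 50 µM, 70.1% with DON and 64.2% in control, and Mpo had its 1 permitted UMI in 10.5%, 4.62% and 6.86%. Just outside that limit, the cells with 2 Mpo UMIs numbered 57, 10 and 8, and their Prtn3 level was 373 CPM (counts per 1000000 UMIs, summed over the cells), 600.5 CPM and 633 CPM, against 332 CPM, 350 CPM and 561 CPM in the members with 1. Cells with 1 marker, just outside the other limit, numbered 1640, 1226 and 1466. Their Cdk6 level was 133, 69.4 and 49.7 CPM, below the 270, 158 and 140 CPM of the members with exactly 2 markers.

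Genes that the rule did not use bore out the label in part. Of the 9 progenitor markers outside the rule, at least 3 had a UMI after thinning in 11.7% of the progenitors at 50 µM, 7.66% with DON and 6.65% in control, against 4.51%, 1.97% and 0.985% of the other cells. Their summed level was 893, 647 and 657 CPM, against 541, 342 and 258 CPM in the other cells. A wider list of 22 measured transcription and cycle regulators of progenitors was lower in them than in the other cells, with sums of 3218 against 3756 CPM at 50 µM, 3027 against 3555 CPM with DON and 2844 against 3337 CPM in control. The sums of 14 stem and multipotent progenitor genes were lower too, at 774.5 against 1014 CPM, 753.7 against 1304 CPM and 735.5 against 1369 CPM, although the median log2 ratios were 0.22, 0.45 and 0.51. Cdk6, a kinase that drives early progenitors through G1, was at 351 CPM in the progenitors at 50 µM, 208 CPM with DON and 200 CPM in control, and at 140, 59.8 and 40.1 CPM in the other cells. The transcription factor Myb, which keeps progenitors immature, was at 142, 110 and 111 CPM, against 89.7, 55.4 and 35.0 CPM. In cells thinned to 2000 UMIs, Cdk6 had a UMI in 43.0% of the progenitors at 50 µM (40.3 to 45.7%), 26.6% with DON and 28.2% in control (24.1 to 32.6%). In cells with both Ccr7 and Fscn1, which mark mature dendritic cells and should lack Cdk6, it had one in 4.58%, 5.33% and 3.80%. The other marks of the label were weaker. Gata2, a factor of stem cells and of mast cell and megakaryocyte precursors, was near absent at 1.39, 3.57 and 4.33 CPM, and Elane had 3.96, 7.89 and 8.21 CPM.

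Kit did not separate these progenitors from mature dendritic cells. After thinning it had a UMI in 3.82% of the progenitors at 50 µM, 5.24% with DON and 5.54% in control, and in 14.3%, 14.3% and 14.6% of all cells with Ccr7 and Fscn1. The rule was met by 18 of those 260 cells at 50 µM (6.92%), 14 of 314 with DON (4.46%) and 19 of 654 in control (2.91%). They made up 1.37%, 2.81% and 4.20% of the progenitors. With all UMIs, Prtn3 was seen in 12.7%, 10.2% and 5.35% of the Ccr7 and Fscn1 cells and Adgrg3 in 9.62%, 6.37% and 2.14%. Ctsg was in 7.31%, 2.87% and 1.22% of them, Cd34 in 6.15%, 1.27% and 1.38%, and Kit in 33.1%, 39.5% and 42.5%. What such stray markers add to the share of progenitors at 50 µM was not tested. After thinning, 2, 1 and 0 of the Ccr7 and Fscn1 cells met the rule. Members admitted by Kit and Prtn3 alone were 2.29% of the progenitors at 50 µM, 9.24% with DON and 11.3% in control. In them Cdk6 was at 176, 71.3 and 63.5 CPM and Cd74, the invariant chain of MHC class II, at 2494, 4248 and 6987 CPM, against 680, 947 and 1829 CPM in all members. Values with Kit not counted are given below for the counts of genes and for MHC class II. This alternative was chosen after the data were seen.

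Markers of other lineages were also present. For pDC and monocytes, 3 markers were in more of the progenitors than 3 progenitor markers were. This held with DON and in control for type 2 conventional dendritic cells too. The lists differed in size, with 9 progenitor, 13 pDC and 15 monocyte genes. At least 3 genes of the pDC list had a UMI after thinning in 28.3% of the progenitors at 50 µM, 18.6% with DON and 15.5% in control, against 51.7%, 49.5% and 44.2% of the other cells. For the monocyte and macrophage list the shares in progenitors were 24.8%, 23.2% and 24.4%, against 27.5%, 24.65% and 23.4% of the other cells. The progenitor shares were 9.40%, 12.1% and 9.09% for type 2 conventional dendritic cells and 0.993%, 2.02% and 3.77% for mature dendritic cells. For neutrophils they were 0.382%, 0.806% and 1.11%. Epx and Ear6 of eosinophils and Il4, Tpsb2, Cma1 and Mcpt4 of basophils and mast cells were at 0 at 50 µM, and of these Epx alone was above 0 in control. The doublet caller, with a threshold set per library, marked 4.27%, 1.81% and 6.64% of the progenitors, against 3.67%, 2.75% and 7.74% of all kept cells. The libraries held 92002827, 87611658 and 89340379 UMIs, and shared 20 to 31 cell barcodes in pairs, none of them a progenitor in both.

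Compared with the other cells of their own library, the Mpo-low progenitors carried more mRNA of cell cycle genes and less of neutrophil and pDC genes. These other cells did not include the Mpo-positive progenitors. The median log2 ratio was 0.43 at 50 µM, 0.75 with DON and 1.02 in control for S phase genes, 0.34, 0.56 and 0.97 for G2 and mitosis genes, -3.84, -3.89 and -4.13 for neutrophil markers and -1.38, -1.47 and -1.41 for pDC markers. Since the Mpo-low progenitors were chosen by their mRNA, this contrast is descriptive. Among 5834 genes, 16 (0.274%) were higher by 2-fold or more in every library and 178 (3.05%) lower. Among the genes of at least 50 CPM on 1 side of every library, Gem, a small GTPase, led with log2 ratios of 1.497 at 50 µM, 1.97 with DON and 2.47 in control. Cdk6 followed with 1.30, 1.71 and 2.18, Igfbp4, an insulin-like growth factor binding protein, with 1.26, 2.13 and 2.64, Ctr9, a subunit of the PAF1 transcription complex, with 1.21, 1.36 and 1.84, and Egfl7, an endothelial and stem cell gene, with 1.18, 1.66 and 2.33. Phgdh, which begins serine synthesis, had 1.17, 1.63 and 2.24, and the cyclin Ccnd2 1.11, 1.28 and 1.41. The remaining genes named by the rule were Il12a (1.03), Cdca7 (0.996), Hmgb3 (0.94), Cd93 (0.92), Srm (0.90), Bcl2 (0.89), Sox4 (0.83) and Bzw2 (0.82), each with the log2 ratio of its least extreme library. The least extreme library was at 50 µM for Gem, Cdk6, Igfbp4, Egfl7, Phgdh and Ccnd2, and the other cells there had more of each of them than in control, for example 140 CPM of Cdk6 against 40.1 CPM. On the low side stood S100a9 (log2 ratios of -4.23, -4.75 and -4.65) and S100a8, subunits of the neutrophil protein calprotectin, then Lcn2, Ly6d, the pDC receptor Siglech (-2.69, -2.86 and -3.45), Lair1, Spib and Ctsl.

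Compared with Mpo-positive progenitors, the Mpo-low progenitors had less mRNA of granule genes and more of dendritic cell genes. Since Mpo, itself a granule gene, divided these groups, this contrast is descriptive too. The median log2 ratio was -0.58 at 50 µM, -0.81 with DON and -0.74 in control for 12 granule genes, and 0.61, 0.82 and 1.42 for mature dendritic cell markers. It was 0.73, 0.92 and 0.86 for MHC class II genes, and 0.50, 0.79 and 0.65 for dendritic cell lineage factors. Monocyte and macrophage markers had medians of 0.34, 0.10 and -0.25, and neutrophil markers of 0.68, -1.77 and -2.05. S phase genes were close in both groups, with medians of 0.01, -0.16 and -0.09, so their higher level was not particular to Mpo-low progenitors. Genes of G2 and mitosis had medians of 0.22, 0.18 and 0.57. Among 5493 genes, 46 (0.837%) were higher by 2-fold or more in every library and 6 (0.109%) lower. Elane was at 3.96 CPM in Mpo-low against 74.7 CPM in Mpo-positive progenitors at 50 µM, 7.89 against 133 CPM with DON and 8.21 against 250.1 CPM in control (log2 ratios of -3.15, -3.42 and -4.27). Alas1, the first enzyme of haem synthesis, had log2 ratios of -1.16, -1.16 and -1.66, and the coagulation factor F13a1 had -0.77, -1.81 and -1.50. On the high side Ahnak had log2 ratios of 1.70, 1.54 and 1.89, Cytip, which limits integrin adhesion, 1.37, 2.05 and 1.65, and Irf8 0.56, 0.68 and 0.63. Cdk6 was lower in Mpo-low than in Mpo-positive progenitors in all 3 libraries (-0.46, -0.88 and -0.71), as were Myb (-0.59, -0.69 and -0.83) and Cd34, a gene of the rule (-1.46, -1.35 and -1.55). The Mpo-positive cells numbered 320, 55 and 64.

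**Figure D2:**
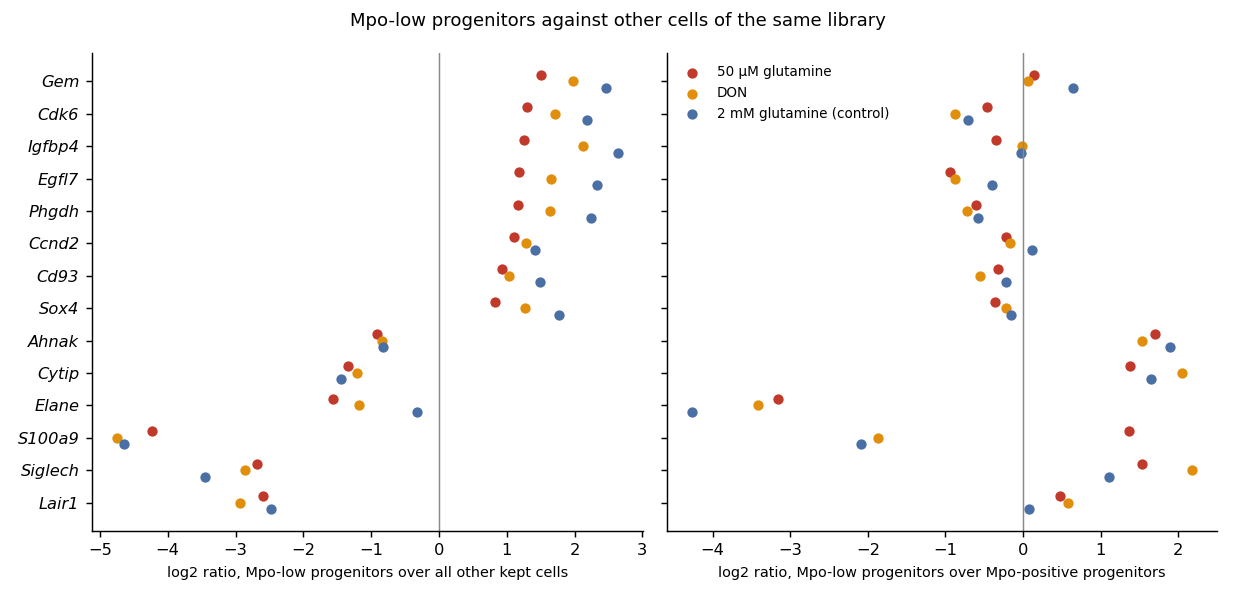
Log2 ratio of CPM (5 CPM added to each) in Mpo-low progenitors for 14 named genes, 1 point per library. The left panel is over all other kept cells except Mpo-positive progenitors, and the right panel is over Mpo-positive progenitors. Gem to Sox4 lie right of 0 in the left panel in all 3 libraries, and Elane lies at -3.15 or below in the right panel.

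At 50 µM glutamine the progenitors had more mRNA of ATF4 targets, aminoacyl-tRNA synthetases and p53 targets than in control, and less of glycolytic, hypoxia and MHC class II genes. Each ratio is the log2 of the treated library's CPM plus 5 over the control library's CPM plus 5. Among 5920 genes with 20 CPM or more in either library, 17 (0.287%) were higher by 2-fold or more and 39 (0.659%) lower. At 1.5-fold, 93 (1.57%) were higher and 103 (1.74%) lower, and the median ratio of all was 0.05. A member of a gene list was counted as measured at 5 CPM in at least 1 of the 3 libraries, so both comparisons used the same members. Members almost unseen with DON and in control, such as Cth, could hardly differ between those libraries. A member that reached 5 CPM at 50 µM alone, such as Cth, Trib3, Gpt2 or Zmat3, could count there as higher but not as lower. Likewise, one that reached it in control alone could count as lower but not as higher. The list counts and medians below carry this limit. The lists were chosen with earlier results of these data known. With DON the differences from the same control library were fewer. Among 5745 genes, 2 (0.0348%) were higher by 2-fold or more and 10 (0.174%) lower, 7 (0.122%) and 22 (0.383%) at 1.5-fold, with a median of 0.02. With Kit not counted, 26 genes were higher by 2-fold or more at 50 µM and 4 with DON. Both comparisons share the control, so their values are set side by side and not correlated.

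Of the 32 measured ATF4 targets and regulators, 26 were at least 1.5 times higher at 50 µM and 0 lower (median log2 ratio 0.91). With DON 0 were higher and 0 lower (median -0.03). Asns, asparagine synthetase, which uses glutamine to make asparagine (ENSMUSG00000029752, chromosome 6, 7675169 to 7693254 of GRCm38), was at 111 CPM at 50 µM (106 to 116 CPM), 9.12 CPM with DON (7.16 to 11.5 CPM) and 12.7 CPM in control (10.1 to 15.7 CPM). The 50 µM library stood apart, with a log2 ratio of 2.71, while the DON and control intervals overlapped. Its promoter is the one shown above with TGATGAAA just before the start. After thinning, 17.0% of progenitors at 50 µM had an Asns UMI (14.96 to 19.1%), 1.41% with DON and 3.55% in control (2.04 to 5.70%), against 2.08%, 1.00% and 0.317% in cells with Ccr7 and Fscn1 that were no members. Atf5, a related transcription factor, was at 45.0 CPM at 50 µM, 5.79 CPM with DON and 4.33 CPM in control (log2 ratio at 50 µM 2.42). The leucine and glutamine exchanger Slc7a5 was at 68.4, 22.7 and 14.3 CPM (1.93), and here DON was above control too (0.52, intervals apart). The mRNA of Atf4 itself was at 151, 80.9 and 80.6 CPM (0.87).

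Genes of each arm of the ATF4 programme were among those higher at 50 µM. In serine, glycine and one-carbon metabolism, Shmt2 was at 105 CPM at 50 µM, 39.6 CPM with DON and 43.3 CPM in control (log2 ratio at 50 µM 1.19), Mthfd2 at 165, 74.3 and 72.6 CPM (1.13), Psat1 at 89.1, 41.3 and 44.2 CPM (0.94) and Phgdh at 261, 158 and 168 CPM (0.62). In proline synthesis, Aldh18a1 had a log2 ratio of 0.97 and Pycr1 of 0.72. Cth, which makes cysteine, was at 12.97 CPM at 50 µM, 0.37 CPM with DON and 0.149 CPM in control, and Trib3, a feedback inhibitor of ATF4, at 9.42, 0.247 and 0.149 CPM, so both rested on a few UMIs outside the 50 µM library. Eif4ebp1, which restrains cap-dependent translation, had 148, 45.5 and 65.1 CPM (1.13). The 6 targets that were not 1.5 times higher were Slc38a2 (0.31), Cebpb (0.58), Cebpg (0.44), Herpud1 (0.30), Ppp1r15a (0.15) and Ddit4 (-0.36). Pck2, mitochondrial phosphoenolpyruvate carboxykinase, was among the 8 highest genes of at least 50 CPM without being on the list, at 83.5 CPM at 50 µM, 22.4 CPM with DON and 25.4 CPM in control (1.54).

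The same list was also higher at 50 µM in other cells. Its median log2 ratio over control was 0.54 in the other cells, without the Mpo-positive progenitors, and 1.18 in the Mpo-positive progenitors. Asns itself had 39.4 CPM in the other cells at 50 µM, 3.48 CPM with DON and 3.17 CPM in control (log2 ratio at 50 µM 2.44), and 150.5, 24.1 and 28.5 CPM in the Mpo-positive progenitors (2.21). Within the Mpo-low progenitors, Asns was at 133 CPM at 50 µM, 15.2 CPM with DON and 16.8 CPM in control in those with 3 or more markers, and at 81.3, 5.62 and 9.53 CPM in those with 2. In members with neither Cd34 nor Kit it was at 111, 7.66 and 7.503 CPM, so the difference at 50 µM was there with and without those genes. Cells with at least 0.5% of their UMIs from G2 and mitosis genes had 135, 10.5 and 13.5 CPM and the remaining ones 52.6, 5.15 and 10.9 CPM.

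Aminoacyl-tRNA synthetases charge tRNAs with amino acids. Of the 20 measured, 6 were at least 1.5 times higher at 50 µM and 0 lower (median 0.43), against 0 and 0 with DON (median 0.00). The list's median at 50 µM was 0.37 in the other cells and 0.62 in the Mpo-positive progenitors. In the Mpo-low progenitors the levels of single genes were as follows. Iars was at 83.6 CPM at 50 µM, 49.4 CPM with DON and 47.3 CPM in control (log2 ratio at 50 µM 0.76), and Sars at 125, 71.0 and 73.5 CPM (0.72). Qars, which charges tRNA with glutamine, was at 48.9, 49.8 and 52.7 CPM (-0.10), with overlapping intervals at 50 µM and in control. Of 21 genes of glutamine and glutamate metabolism, 3 were higher and 0 lower at 50 µM (median 0.20): Asns, the glutamine transporter Slc1a5 at 68.2, 43.0 and 41.7 CPM (0.65), and the transaminase Gpt2 at 10.8, 0.986 and 1.79 CPM (1.22).

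Of 15 p53 targets, 7 were at least 1.5 times higher at 50 µM and 1 lower (median 0.55), and with DON 0 and 0 (median 0.01). The cycle inhibitor Cdkn1a was at 120 CPM at 50 µM (115 to 124 CPM), 47.0 CPM with DON and 53.2 CPM in control (47.8 to 59.0 CPM), a log2 ratio of 1.10. Bbc3, which encodes the pro-apoptotic protein PUMA, was at 30.9, 9.37 and 11.2 CPM (1.15), and Zmat3 at 9.67, 4.69 and 1.94 CPM (1.08). Zmat3 was measured through the 50 µM library alone, so it could not count as lower there. Sesn2 (0.85) is on the ATF4 list too, and the member that was lower was Btg2 (-0.60). At 50 µM the list's median was 0.33 in the other cells, without the Mpo-positive progenitors, and 0.70 in the Mpo-positive progenitors.

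**Figure D3:**
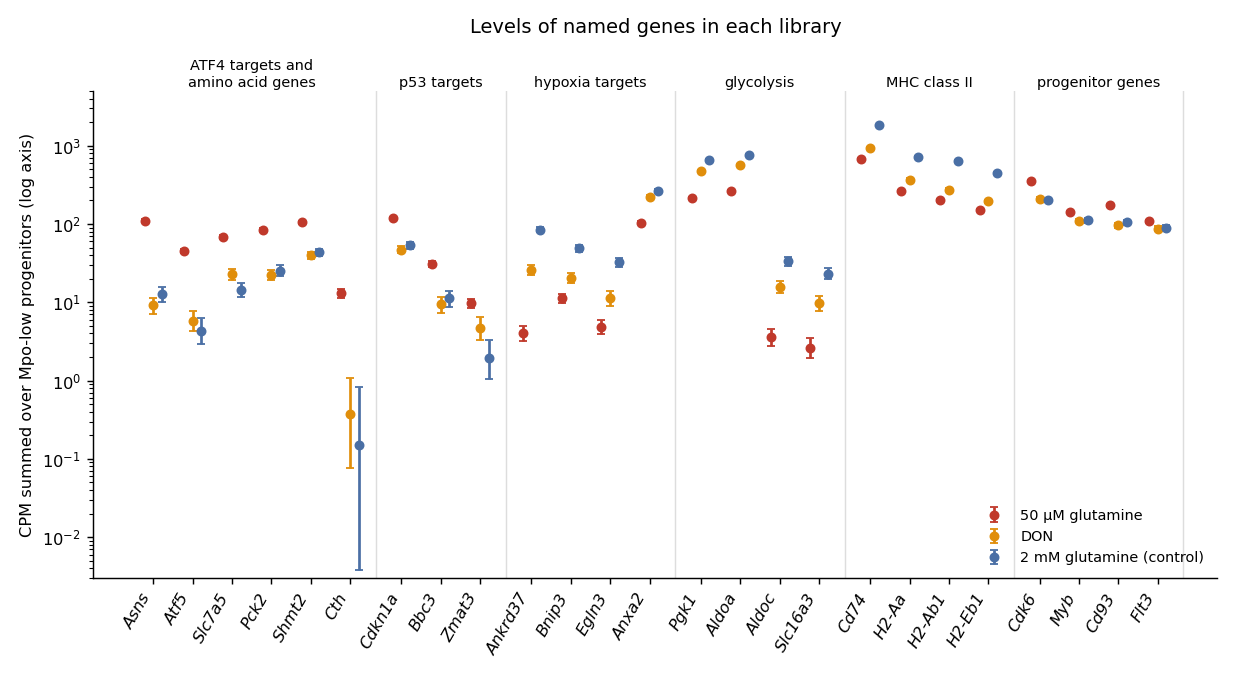
CPM summed over Mpo-low progenitors (log axis) of 25 named genes in the 50 µM glutamine, DON and control libraries; points are values and bars exact 95% Poisson intervals. The 50 µM points lie above the others for the ATF4 and p53 targets (Asns 111, 9.12 and 12.7 CPM) and below them for hypoxia, glycolysis and MHC class II genes (Ankrd37 4.01, 25.8 and 84.7 CPM).

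Glycolytic enzymes were lower at 50 µM and, by smaller amounts, with DON. Of 22 measured genes, 13 were at least 1.5 times lower at 50 µM and 0 higher (median -0.69), and 3 lower and 0 higher with DON (median -0.41). Pgk1, phosphoglycerate kinase, was at 212 CPM at 50 µM (206 to 219 CPM), 472 CPM with DON (458 to 488 CPM) and 665 CPM in control (645 to 684 CPM), with log2 ratios of -1.62 and -0.49. Aldoa, the aldolase of most tissues, was at 268, 570 and 756 CPM (-1.48 and -0.41), and the lactate exporter Slc16a3 at 2.62, 9.74 and 23.2 CPM (-1.88 and -0.93). In each of these the 3 intervals were apart, with 50 µM lowest and control highest. Hk1 (log2 ratio at 50 µM 0.32), Slc16a1 (0.15), Pfkm (0.12) and Hk3 (0.06) were not lower. The list's median at 50 µM was -0.69 in the other cells, without the Mpo-positive progenitors, and -0.62 in the Mpo-positive progenitors. With DON it was -0.37 and -0.20.

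Targets of the hypoxia-inducible factors outside glycolysis were also lower in both treated libraries. Of 16, 6 were at least 1.5 times lower and 1 higher at 50 µM (median -0.39), and 4 lower and 0 higher with DON (median -0.37). Ankrd37, an ankyrin repeat protein known as a HIF1 target (ENSMUSG00000050914, chromosome 8, 45996902 to 46005707), was the lowest gene in both comparisons by the naming rule, at 4.01 CPM at 50 µM (3.17 to 5.01 CPM), 25.8 CPM with DON (22.4 to 29.5 CPM) and 84.7 CPM in control (77.8 to 91.9 CPM). Its log2 ratios were -3.31 and -1.54. The mitophagy receptor Bnip3 was at 11.3, 20.5 and 49.0 CPM (-1.73 and -1.08), and the oxygen-sensing hydroxylase Egln3 at 4.89, 11.2 and 32.4 CPM (-1.92 and -1.21). P4ha1, which hydroxylates collagen, was at 16.2, 18.5 and 45.5 CPM (-1.26 and -1.10). Vegfa was the member that was higher at 50 µM, at 15.6 CPM at 50 µM, 4.44 CPM with DON and 6.72 CPM in control (0.82 at 50 µM). Ankrd37 was as far from control in the other cells of the 50 µM library, with 4.32, 33.1 and 88.6 CPM (-3.33). Oxygen in the cultures is not given in the labels, and its part in these values was not tested.

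MHC class II mRNA was lower at 50 µM and, for the chains themselves, with DON. Of 14 genes, 9 were at least 1.5 times lower at 50 µM and 0 higher (median -0.73), and 4 lower and 1 higher with DON (median -0.36). H2-Ab1 was at 200 CPM at 50 µM, 273 CPM with DON and 643 CPM in control (log2 ratios of -1.66 and -1.22), H2-Eb1 at 151, 195 and 446 CPM (-1.53 and -1.18), H2-Aa at 263, 369 and 717 CPM (-1.43 and -0.95) and Cd74 at 680, 947 and 1829 CPM (-1.42 and -0.95). Ciita, their transcriptional activator, was at 19.2, 26.1 and 35.5 CPM (-0.75 and -0.38). The chains and Cd74 together gave a median of 0 UMIs per 2000 at 50 µM, 1 with DON and 1 in control, while the 90th percentile was 6, 11.5 and 26. They were at 0 in 56.5%, 47.4% and 33.7% of the progenitors. The 131, 50 and 45 cells with most of these UMIs held 76.1%, 71.3% and 67.1% of them. Their summed level was 1294, 1782 and 3635 CPM with all cells and 342, 562 and 1331 CPM without those cells, a selection made after the data were seen. In members with neither Cd34 nor Kit, Cd74 was at 550 CPM at 50 µM, 466 CPM with DON and 698 CPM in control. H2-Aa was at 215, 169 and 224 CPM in them. The list's median there was -0.30 at 50 µM, with 1 of 14 genes at least 1.5 times lower, and 0.02 with DON. In members with Kit and no Cd34, Cd74 was at 1916, 3311 and 5544 CPM. With Kit not counted the ratios of Cd74 were -0.72 at 50 µM and -1.07 with DON, those of H2-Ab1 -1.002 and -1.52, and the median of the list was -0.35 and -0.25. Cells of other types among the members move with this result, and their part in it was not tested. In the other cells the list's median was -1.06 at 50 µM and -0.58 with DON, and in the Mpo-positive progenitors -0.505 and -0.28.

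Some lipid synthesis genes were lower at 50 µM. Of 24 cholesterol synthesis genes 3 were at least 1.5 times lower and 0 higher (median -0.42), against 0 and 0 with DON (median 0.16). Fdps, farnesyl diphosphate synthase, was at 166 CPM at 50 µM, 390 CPM with DON and 306 CPM in control (log2 ratios of -0.87 and 0.34), so the treatments lay on opposite sides of control. Of 13 fatty acid synthesis genes 3 were lower at 50 µM (median -0.22), led by the desaturase Scd2 with 100.4, 265 and 278 CPM (-1.43), and 0 with DON (median 0.07). The type I interferon list had 2 of 20 lower at 50 µM (median -0.37), among them Ifi27l2a with 558, 899 and 1012 CPM (-0.85), and 0 either way with DON (median 0.04).

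Cell cycle and nucleotide genes were close to control. Of 44 S phase genes 0 were 1.5 times apart at 50 µM (median 0.13) or with DON (0.15). Of 52 genes of G2 and mitosis, 1 was higher at 50 µM (Psrc1, a spindle protein, 0.96; median 0.06) and 0 with DON (median 0.04). The progenitors took 0.429% of their UMIs from the S phase list at 50 µM, 0.439% with DON and 0.394% in control, and 1.04%, 1.07% and 1.02% from the G2 and mitosis list. In the other cells these were 0.310%, 0.245% and 0.184%, and 0.816%, 0.720% and 0.519%. In the Mpo-positive progenitors they were 0.429%, 0.480% and 0.423%, and 0.894%, 0.951% and 0.711%. Purine synthesis, several steps of which use glutamine as nitrogen donor, had 0 of 15 genes apart in either comparison (medians 0.13 and 0.11), as had pyrimidine synthesis (0 of 15, medians 0.04 and 0.13), MYC targets and ribosome biogenesis (0 of 30, medians 0.12 and -0.01) and nuclear respiratory chain subunits (0 of 32, medians -0.08 and 0.06).

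**Figure D4:**
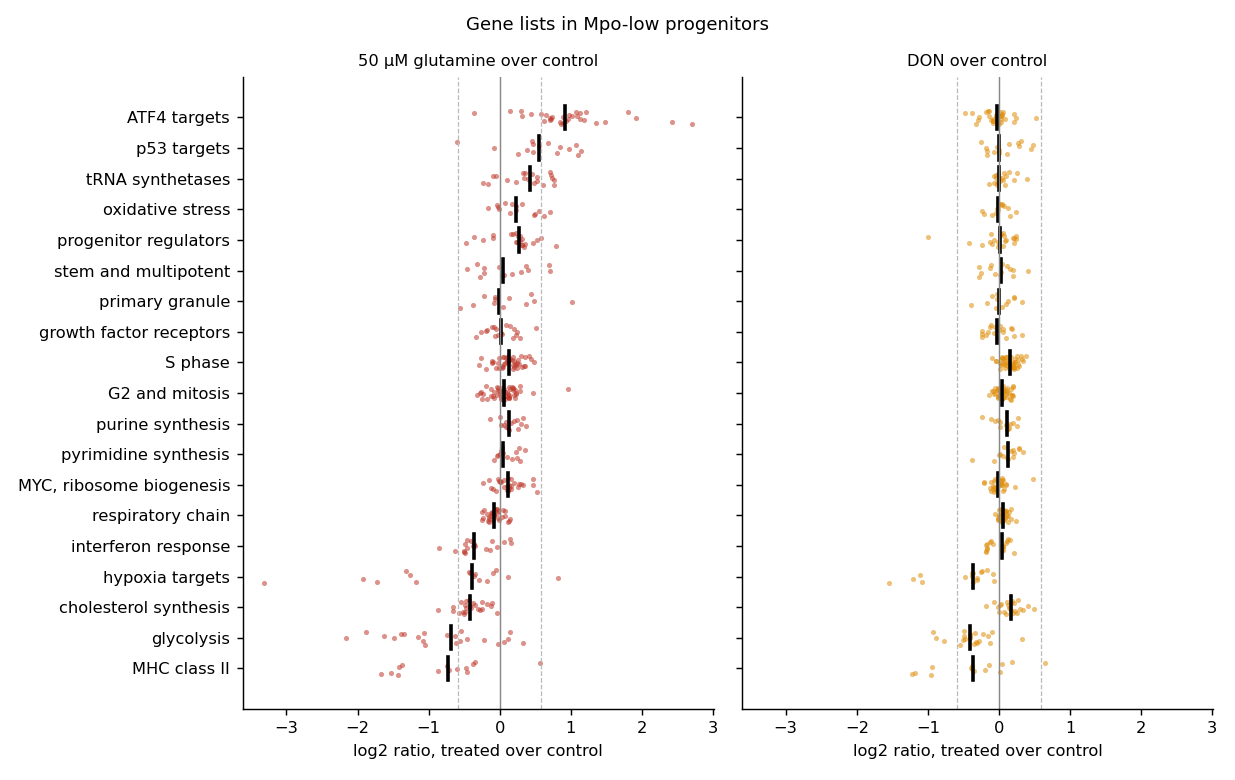
Log2 ratio over control of every measured member (points) and the median (black bar) of 19 gene lists in Mpo-low progenitors, for 50 µM glutamine (left) and DON (right); dashed lines mark 1.5-fold. ATF4 targets have the highest median at 50 µM (0.91) and lie around 0 with DON (-0.03).

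Few genes of progenitor identity were 1.5 times apart. Of all genes compared at 50 µM, 1.57% were 1.5 times higher and 1.74% lower. The rule admitted cells by progenitor genes, so likeness in such genes is partly set by the rule. Of 14 stem and multipotent progenitor genes 2 were higher and 0 lower at 50 µM (median 0.05) and 0 and 0 with DON (median 0.03). Those 2 were Cd93, a receptor of early myeloid progenitors, at 173, 96.5 and 104 CPM (0.70), and the transcriptional coregulator Mn1 at 17.1, 12.9 and 8.51 CPM (0.71). Among 22 regulators, Cdk6 (0.80) was the member higher at 50 µM, and Egr1 was the member lower with DON (-0.99, on 1.11 CPM against 7.17 CPM in control). The median of the regulators was 0.27 at 50 µM and 0.02 with DON. In the other cells the medians at 50 µM were 0.42 for the stem and multipotent list and 0.35 for the regulators. None of 19 cytokine and growth factor receptors was 1.5 times apart (medians 0.02 and -0.03), and Flt3 was at 109, 87.0 and 88.7 CPM. Of 12 granule genes 1 was higher at 50 µM, the haptoglobin gene Hp with 13.3, 6.29 and 4.03 CPM (1.02), of which 46.1% of the UMIs at 50 µM lay in 10 cells. Of 20 dendritic cell factors 2 were lower at 50 µM and 0 with DON. In members with neither Cd34 nor Kit, 4 were higher and 0 lower at 50 µM. In those with Kit and no Cd34, 1 was higher and 5 lower, and in those with Cd34, 0 and 3. The part of other cell types among the members was not tested. The next levels are for all members. Batf3, required for cDC1, was at 3.24 CPM at 50 µM, 13.3 CPM with DON and 19.1 CPM in control (-1.55 and -0.40), with 47.6% of its UMIs at 50 µM and 37.5% in control in 10 cells. Id2, which promotes the conventional lineage over pDC, was at 66.2, 114 and 141 CPM (-1.04 and -0.30). Irf8 was at 680, 834 and 730 CPM (-0.10 and 0.19).

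Cox6a2, a cytochrome oxidase subunit of muscle that is also typical of pDC, was the highest gene at 50 µM that did not rest on a few cells. It was at 616 CPM at 50 µM (605 to 627 CPM), 115 CPM with DON (108 to 123 CPM) and 76.9 CPM in control (70.4 to 83.8 CPM), with log2 ratios of 2.92 and 0.55. After thinning it had a UMI in 49.7% (46.9 to 52.4%), 12.1% and 9.31% (6.79 to 12.4%) of the progenitors, and in 5.42%, 9.33% and 6.49% of the Ccr7 and Fscn1 cells. In members without a Siglech UMI it was at 635, 92.5 and 67.2 CPM, so it was high at 50 µM apart from that pDC receptor. In Mpo-positive progenitors it was at 453, 12.9 and 8.56 CPM (log2 ratio at 50 µM 5.08) and in the other cells at 496, 216 and 182 CPM (1.42). Siglech itself was at 64.2, 52.9 and 30.3 CPM (0.97 and 0.71). Cd69, an early activation receptor, was at 115, 33.8 and 36.9 CPM (1.51) and the linker histone H1f0 at 31.6, 77.8 and 96.3 CPM (-1.47).

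Several extreme ratios came from a handful of cells. Ctla2a, a cathepsin inhibitor, was highest of all at 50 µM with 121 CPM against 6.90 CPM with DON and 9.11 CPM in control (log2 ratio 3.16), but 7 of 1311 cells held 93.1% of its UMIs there. These 7 had at least 10 UMIs of the platelet chemokine Pf4, and held 94.2% of the UMIs of the platelet integrin Itga2b and 73.9% of those of Nrgn. Such cells numbered 3 with DON and 1 in control, where the 1 cell held 98.5% of the Pf4 UMIs. With the 10 cells that held most UMIs of the gene left out in each library, an alternative chosen after the data were seen, the ratios at 50 µM were 0.73 for Ctla2a and 0.33 for Nrgn (1.25 with them), and the DON ratio of Pf4 was 0.26 (-1.51 with them). Ccl5, a chemokine of mature dendritic cells, was at 78.3, 131 and 275 CPM (-1.75 and -1.04), and 79.9%, 89.1% and 85.3% of its UMIs lay in the 18, 14 and 19 members with Ccr7 and Fscn1. Prg2 of eosinophils was at 0.720, 0.123 and 34.0 CPM, and its 10 leading cells held all of the control UMIs. With at least 3 markers required the DON ratio of Ccl5 was 0.17, and without its 10 leading cells the ratio of Prg2 at 50 µM was 0.06.

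With DON, the 2 genes at least 2-fold higher were S100a8, at 109 CPM at 50 µM, 153 CPM with DON and 73.8 CPM in control (log2 ratio with DON 1.00), and Chil3, a macrophage chitinase-like protein (1.00), which was named after its value was seen. In S100a8 10 cells held 82.9% of the DON UMIs and 75.5% of the control UMIs. Without the 10 leading cells of each library it was at 25.7 CPM at 50 µM, 26.1 CPM with DON and 18.1 CPM in control, and its DON ratio was 0.43, below 2-fold. Other genes that led with DON were Siglech (0.71), the cathepsin Ctsl (0.65), Cox6a2 (0.55), S100a9 (0.51), the transferrin receptor Tfrc (0.47) and the nucleosome-binding Hmgn3 (0.47). With cells thinned to 2000 UMIs before the rule was applied the DON ratios of Siglech and Ctsl were below 0, at -0.24 and -0.22. Tfrc was at 183 CPM at 50 µM, 184 CPM with DON and 131 CPM in control, so both treatments were above control. Of the 10 genes at least 2-fold lower with DON, 4 were hypoxia targets (Ankrd37, Bnip3, Egln3 and P4ha1) and 2 MHC class II chains.

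**Figure D5:**
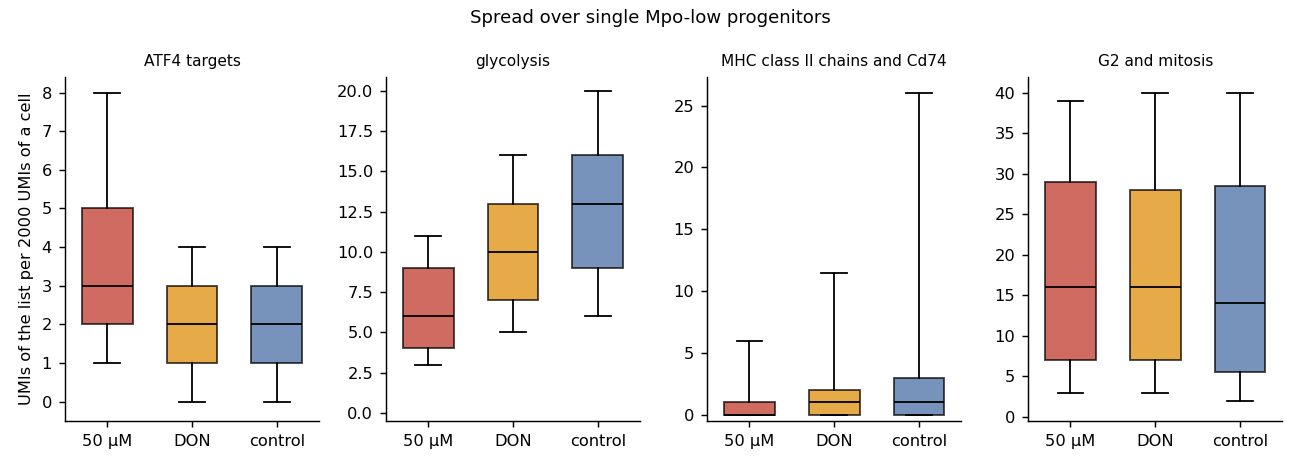
UMIs of 4 gene lists per 2000 UMIs of each Mpo-low progenitor in the 50 µM glutamine, DON and control libraries; line, box and whiskers are the median, the quartiles and the 10th and 90th percentiles over cells. Medians for ATF4 targets are 3, 2 and 2, for glycolysis 6, 10 and 13, and the MHC class II whisker reaches 26 in control.

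Over single cells the quartiles and outer percentiles of the ATF4 and glycolysis lists differed between 50 µM and control. The ATF4 list had a median of 3 UMIs per 2000 at 50 µM, 2 with DON and 2 in control, with an upper quartile of 5, 3 and 3 and a 90th percentile of 8, 4 and 4. It was at 0 in 7.72%, 17.3% and 16.4% of cells. Glycolysis had 10th percentiles of 3, 5 and 6, medians of 6, 10 and 13 and 90th percentiles of 11, 16 and 20, so that the 90th percentile at 50 µM lay under the control median. The G2 and mitosis list had medians of 16, 16 and 14. These values describe cells of 1 library each and do not stand for replicates.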

How the data were processed

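Single-cell mRNA was measured in 3 libraries without replicates, of 87611658 to 92002827 UMIs. The authors deposited raw UMI counts per gene and barcode, with barcodes already called as cells and no normalisation. Cell Ranger 6.0.0 is named per the file headers, and Cell Ranger 3.1.0 with mm10 per the submitters' processing notes. The annotation is not given in the sources used here. Of 32285 identifiers, 32158 (99.61%) matched GENCODE vM21 (GRCm38), which gave the gene coordinates.

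Cells were kept with at least 1000 UMIs, 500 genes and at most 10% mitochondrial UMIs, and doublets, which the Scrublet method marked per library, were kept except in 1 alternative. UMIs were summed over the progenitors of a library and scaled to counts per 1000000 (CPM), with exact Poisson intervals, and shares with exact binomial intervals (95%, counting error only). Log2 ratios used a pseudocount of 5 CPM, which understates ratios of low genes, and a minimum of 20 CPM in either library. List members needed 5 CPM in at least 1 of the 3 libraries. With 1 library per group no test was run. Thinning used seed 1. The ratios were tested on simulated data.

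Named genes were the 8 highest and 8 lowest of at least 50 CPM with intervals apart, up to 4 per list by absolute ratio, and the 15 highest and 8 lowest against other cells by the least extreme library. Genes of the rule and a few fixed genes were added. Not every gene named by this rule is described, and 1 is not reported here. The members, the 26 gene lists and the 12 marker lists were chosen with earlier results of these data known. In all, 14 alternatives and 3 chosen after the data were seen were tried. Python 3.11.15, numpy 2.4.6, pandas 2.3.3, scipy 1.17.1, scikit-learn 1.9.0 and matplotlib 3.10.9 were used.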

Additional observations from a re-analysis of the deposited data

How the results depend on the processing

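Across 14 alternatives and 3 more chosen after the data were seen, none of 52 list medians and 17 of 374 ratios of named genes (15 genes) reversed. Medians were recomputed in 15 settings and gene ratios in 16. Only medians well away from no difference could count as reversed. Gene ratios had to be at least 1.5-fold with an interval that excluded no difference. Smaller values changed sign uncounted. At 50 µM the median of immediate early genes (-0.25) reached 0.13, and the ratio of S100a8 (0.53) reached -0.82. The share of Mpo-low progenitors was highest at 50 µM in every setting. No paired analysis was possible because each group had 1 library. Where values moved, the cause was not tested.

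With a minimum of 50 CPM, 24 genes were at least 2-fold lower at 50 µM, and with DON 1 was higher and 5 lower; with no minimum 39 were higher at 50 µM. With a pseudocount of 20 CPM, 8 were higher and 24 lower at 50 µM, and 0 and 5 with DON. With the mean of per-cell CPM, 1 was higher with DON.

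With Mpo at 0 the share at 50 µM was 12.2%, 7 genes were 2-fold higher than in other cells in every library, and 0 were higher with DON over control. With at least 3 of the 5 markers the shares were 6.82% at 50 µM, 1.68% with DON and 1.56% in control, 27 and 269 genes were higher and lower than in other cells, and 27 were higher at 50 µM over control. The log2 ratios of Prg2 (0.17) and Serpinb6b (0.14) reversed at 50 µM, and those of Pf4 (0.60), Ccl5 (0.17) and Ctsl (-0.11) with DON. With Cd34 or Kit required the shares were 6.94%, 2.97% and 2.64%, and 0 genes were higher with DON. With a mitochondrial limit of 5% they were 15.2% at 50 µM and 6.27% with DON, and 0 genes were higher with DON. With doublets removed Prg2 reversed at 50 µM (0.13).

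With cells thinned to 2000 UMIs before the rule the shares were 5.27%, 1.52% and 1.29%, 31 and 273 genes were higher and lower than in other cells, 25 were lower at 50 µM and 6 higher with DON. At 50 µM the ratios of Prg2 (0.17), Fscn1 (0.27), Il12b (0.17), Ccr7 (0.15), Cd7 (0.15) and Serpinb6b (0.33) reversed, and with DON those of Prg2 (0.11), Pf4 (0.057), Siglech (-0.24) and Ctsl (-0.22). With all cells that had 3 markers of another lineage removed, 33, 10 and 19 progenitors were left, with shares of 0.342%, 0.113% and 0.183%, and gene values were not recomputed.

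The other alternatives were chosen after the data were seen. With Kit not counted the shares were 12.7%, 4.68% and 3.59%, 26 genes were higher at 50 µM and 4 with DON. Traf1 (0.019), Prg2 (0.14), Fscn1 (0.12) and Serpinb6b (0.25) reversed at 50 µM and Pf4 (0.65) with DON. With cells that had 3 markers of another lineage after thinning removed, the shares were 7.05%, 3.20% and 2.46%, 29 and 306 genes were higher and lower than in other cells, and 1 was higher with DON. Traf1 (0.10), Prg2 (0.14), Cpa3 (0.088), Nrgn (-0.066), Cyp11a1 (0.054), Il12b (0.088), Ccl5 (0.062) and Serpinb6b (0.39) reversed at 50 µM, and Pf4 (3.83), Ccl4 (-0.12) and Ctsl (-0.14) with DON. Without the 10 cells that held most UMIs of the gene, Prg2 (0.058) reversed at 50 µM and Pf4 (0.26) with DON.

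The depth limits low genes most, and intervals do not hold the spread between cultures. With 452 progenitors in control, genes carried by a few cells set several ratios.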
